A study of Mus musculus with 12 samples.

Results

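Many genes are used as readouts of the transcriptional coactivators YAP and TAZ, and 10 of them were examined here one by one: Ccn1, Ccn2, Ccdc80, Crim1, Fjx1, F3, Axl, Myof, Ankrd1 and Dock5. The genes were chosen by symbol from a 22-gene YAP/TAZ-TEAD target signature, all 10 were present in the 12 deposited gene tables of 18926 genes, and all 10 were among the 18053 genes that had enough counts to be tested. RNA was sequenced from S1, a mouse gastric cancer cell line, grown as tumorspheres, that is, as floating spheres seeded from single cells in serum-free medium on low-attachment plates (the cell type entry of the labels reads monolayer cell, and 2 sphere media are given without saying which library had which). There were 3 control libraries, 3 Nf2-KO libraries, 3 libraries labelled Rasa1-KO and 3 libraries labelled double-KO for Rasa1 and Nf2. The knockouts were made with Cas9 and guide RNAs delivered by lentivirus, and the study describes the RNA profiles of a group as technical replications. Every n of 3, SE and p-value therefore covers the spread between technical replicates and not that between independent cultures. NF2 encodes merlin, an upstream activator of the Hippo kinases, and RASA1 encodes a GTPase-activating protein that switches off Ras.

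In the Hippo pathway the kinases MST and LATS phosphorylate YAP and TAZ and hold them in the cytoplasm. When this restraint is lost, YAP and TAZ enter the nucleus, bind TEAD factors on DNA and turn on genes for matrix proteins, receptors and regulators of the cytoskeleton. CCN1 and CCN2, long known as CYR61 and CTGF, and ANKRD1 are the readouts most often taken for this activity, also in epithelial tumours.

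The targeted genes were examined first. Nf2 stood at 13.3, 12.1 and 11.4 FPKM in control libraries 1, 2 and the control library without a number, at 2.88, 3.66 and 2.61 FPKM in Nf2-KO libraries 1 to 3, at 2.34, 2.82 and 2.40 FPKM in the libraries labelled Rasa1-KO, and at 11.8, 10.9 and 11.3 FPKM in the libraries labelled double-KO. FPKM is the number of fragments of a gene scaled to its length and to the depth of the library, so it can be compared between genes. Values are given in the order of libraries 1, 2 and the one without a number for control and for the group labelled Rasa1-KO, and of libraries 1 to 3 for the others. Rasa1 was at 10.9 to 15.6 FPKM in control and 17.4 to 18.9 FPKM in Nf2-KO, against 5.32 to 5.999 FPKM in the libraries labelled Rasa1-KO and 3.09 to 4.35 FPKM in those labelled double-KO. Nf2 transcript was therefore low in the group labelled Rasa1-KO and at control level in the group labelled double-KO, which goes against both labels, and the names of the deposited tables carry these 2 genotypes the other way round. Both transcripts were low in the group labelled Rasa1-KO, and Rasa1 alone was low in that labelled double-KO. Read by these levels and by the table names, the 2 genotypes change places. The groups are called by their labels throughout, and every direction given for them rests on labels that the Nf2 level contradicts.

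Total gene counts ran from 43818139 to 96674463 a library. Within their groups, 2 libraries lay apart: the control library without a number and library 1 of the group labelled double-KO. These were also the 2 libraries with the highest total counts, 95340850 and 96674463, and neither has a number in its table name. Whether depth or a batch had a part in this was not tested. The 10 genes had 27 or more counts in every library, with the lowest for Ccdc80 in the control library without a number. The part of counting error in the spread between libraries was not tested for single genes. Epithelial keratins Krt8, Krt18 and Krt19 were each at 555 FPKM or more in every library, whereas Epcam was at 27.7 to 31.7 FPKM in control and 4.43 to 4.89 FPKM in Nf2-KO, and the tight-junction gene Cldn4 stayed below 0.42 FPKM throughout.

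Of the 10 genes, 6 had an entry in the RefSeq promoter table of build GRCm38.p6 (Ccn1, Crim1, F3, Axl, Myof and Ankrd1). The promoters of Ccn1, Ankrd1 and F3, which of these 6 differed most in fold between control and Nf2-KO, are printed to show what lies before their start sites. Each is the 250 bases before the start site, 5′ to 3′ on the gene's own strand, with capitals marking the TEAD core GGAATG, read on either strand, and the AP-1 motif TGANTCA. They lie at chr3:145649986-145650235 (minus strand) for Ccn1, chr19:36119845-36120094 (minus strand) for Ankrd1 and chr3:121723287-121723536 (plus strand) for F3.
Ccn1: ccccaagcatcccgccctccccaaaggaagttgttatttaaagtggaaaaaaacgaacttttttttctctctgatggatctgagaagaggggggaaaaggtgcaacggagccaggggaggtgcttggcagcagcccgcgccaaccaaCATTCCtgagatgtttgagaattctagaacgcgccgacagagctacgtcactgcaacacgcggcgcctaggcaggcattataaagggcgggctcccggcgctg
Ankrd1: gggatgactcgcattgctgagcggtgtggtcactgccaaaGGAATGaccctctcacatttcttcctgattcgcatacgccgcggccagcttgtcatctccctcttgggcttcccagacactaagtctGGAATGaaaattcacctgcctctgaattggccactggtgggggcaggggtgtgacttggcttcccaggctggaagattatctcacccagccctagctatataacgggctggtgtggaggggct
F3: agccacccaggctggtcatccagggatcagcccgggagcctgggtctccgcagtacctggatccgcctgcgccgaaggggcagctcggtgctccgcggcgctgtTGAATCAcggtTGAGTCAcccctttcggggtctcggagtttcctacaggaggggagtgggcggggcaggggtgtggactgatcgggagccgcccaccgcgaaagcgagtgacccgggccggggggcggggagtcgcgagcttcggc
In the 300-base window around the start site, the TEAD core occurred once in Ccn1 with its first base at -103, at -210 and -123 in Ankrd1, once in Crim1 at -79 and once in Axl at -233, and it was not found in F3 or Myof. Across all 32851 promoters of the table the TEAD core was present in 14.7%. The AP-1 motif was present in 7.81% of them and, among the 6 genes, in F3 alone, at -146 and -135, while the CArG box, present in 1.63%, was in none of the 6. The 2 motifs share no overlapping match in these windows, and a match in the letters is a description of the window and not a bound site.

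The central question was which of the 10 genes differed from control when Nf2 was knocked out. In Nf2-KO tumorspheres Ccn1, Ccdc80, F3, Axl and Ankrd1 rose, Crim1 and Fjx1 fell, and Ccn2, Myof and Dock5 did not pass the test. The 5 that rose and the 2 that fell stand against a background of 20.6% of all genes tested that were higher and 22.2% that were lower in this comparison. The median log2 difference of all 10 genes was 0.75, beside -0.07 over all genes tested, and single genes ran from -2.45 to 3.78. The 10 genes, like the gene lists below, were chosen with earlier results of these data known. The split and the median therefore describe the chosen genes and are not a test of them as a list. Ccdc80 was 13.8-fold and Ccn1 9.28-fold higher, while Fjx1 was 5.45-fold lower.

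**Figure D1:**
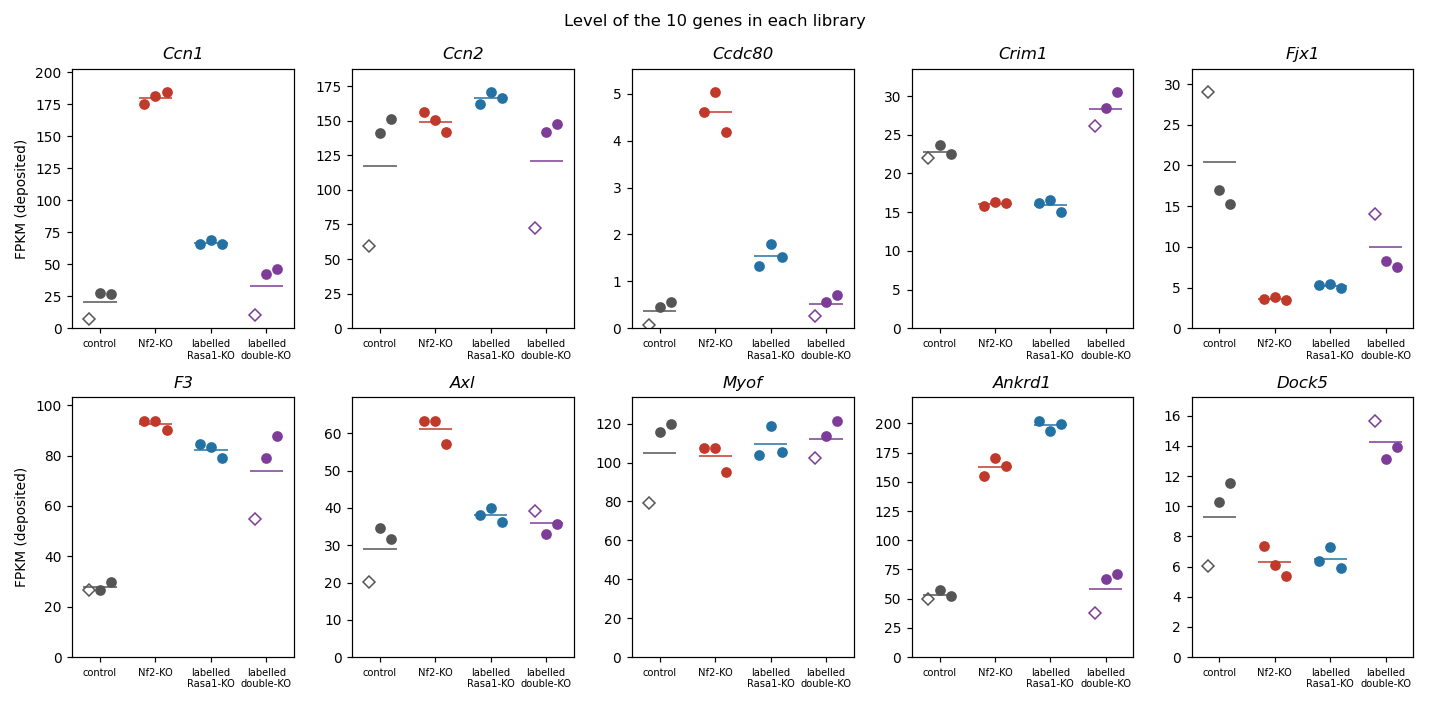
Deposited FPKM (linear axes from 0) of each of the 10 genes in the 12 libraries, by group; circles are libraries, the horizontal line is the mean of 3, and open diamonds are the control library without a number and library 1 labelled double-KO. Nf2-KO libraries lie above every control library for Ccn1, Ccdc80, F3, Axl and Ankrd1 and below every control library for Crim1 and Fjx1.

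Among the secreted proteins, Ccn1 encodes a matricellular protein that binds integrins and heparan sulfate. It was at 27.5, 27.0 and 7.50 FPKM in control libraries 1, 2 and the one without a number, and at 175, 182 and 185 FPKM in Nf2-KO libraries 1 to 3. In the libraries labelled Rasa1-KO it was at 68.8, 65.7 and 66.0 FPKM (libraries 1, 2 and the one without a number), and in those labelled double-KO at 10.7, 42.7 and 46.6 FPKM. Nf2-KO was the highest group and its range touched no other, while the range of the labelled double-KO group overlapped control through its library 1. The log2 difference from control was 3.21 ± 0.52 (SE, n = 3) in Nf2-KO (edgeR, adjusted p = 0.000472) and 1.84 ± 0.50 in the group labelled Rasa1-KO (edgeR, adjusted p = 0.0118), and both passed. In the group labelled double-KO it was 0.82 ± 0.49 and did not pass (edgeR, adjusted p = 0.37). In fits chosen after the data were seen, it was 0.85 without the 2 libraries that lay apart (edgeR, adjusted p = 1.17e-05). It was 0.76 with the numbers in the table names as pairs (edgeR, adjusted p = 0.000711), and both passed. The table names pair the 2 libraries that lay apart with each other, so these 2 fits do not count as separate support. Such calls do not replace the planned test, here or for the genes below. The libraries left out held the largest deviations of Ccn1.

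Ccn2, a matricellular protein gene of the same family and as often used as a readout, had another pattern. It was at 141, 151 and 59.4 FPKM in control libraries 1, 2 and the one without a number, and at 156, 151 and 142 FPKM in Nf2-KO. It was at 171, 166 and 162 FPKM in the libraries labelled Rasa1-KO and at 72.2, 142 and 148 FPKM in those labelled double-KO. Apart from the 2 libraries that lay apart, all 10 libraries were between 141 and 171 FPKM, so Ccn2 was already high in control spheres. The log2 difference from control was 0.43 ± 0.30 in Nf2-KO (edgeR, adjusted p = 0.258), 0.65 ± 0.30 in the group labelled Rasa1-KO (edgeR, adjusted p = 0.102) and 0.16 ± 0.30 in that labelled double-KO (edgeR, adjusted p = 0.802), and none passed. In the fit without the 2 libraries that lay apart, chosen after the data were seen, the difference in the group labelled Rasa1-KO was smaller, 0.35. It passed there (edgeR, adjusted p = 0.000649). An antisense transcript overlaps Ccn2 on the other strand, and the strand setting of the counting is not given in the sources used here, so reads of the 2 cannot be told apart.

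The level of Ccn1 relative to Ccn2 was taken within each library, where depth cancels. The ratio of their FPKM was 0.194, 0.178 and 0.126 in control libraries 1, 2 and the one without a number, and 1.12, 1.21 and 1.30 in Nf2-KO. It was 0.403, 0.394 and 0.408 in the libraries labelled Rasa1-KO, and 0.148, 0.301 and 0.315 in those labelled double-KO. Ccn2 exceeded Ccn1 in all 9 libraries outside Nf2-KO and fell short of it in all 3 Nf2-KO libraries. A change in the ratio shows that the 2 genes changed unequally and not which of them was stable.

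**Figure D2:**
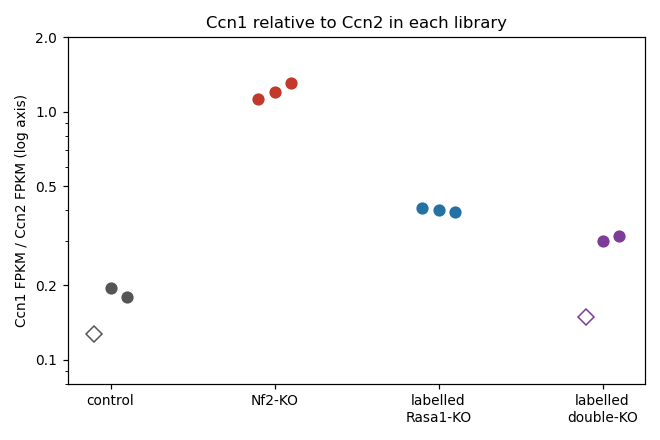
Ratio of Ccn1 to Ccn2 FPKM in each of the 12 libraries (log axis), by group; open diamonds are the 2 libraries that lay apart. The 3 Nf2-KO libraries sit between 1.12 and 1.30, the 3 labelled Rasa1-KO between 0.394 and 0.408, and control between 0.126 and 0.194.

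Ccdc80 encodes a secreted matrix-associated protein and was the least abundant of the 10 genes per length in control. It was at 0.447, 0.568 and 0.0693 FPKM in control libraries 1, 2 and the one without a number (127, 105 and 27 counts), and at 4.61, 5.04 and 4.20 FPKM in Nf2-KO. The libraries labelled Rasa1-KO had 1.81, 1.52 and 1.33 FPKM and those labelled double-KO 0.258, 0.569 and 0.700 FPKM. Nf2-KO was again highest and the group labelled Rasa1-KO stood between it and control, with no overlap among these 3 groups. The log2 difference was 3.78 ± 0.56 in Nf2-KO (edgeR, adjusted p = 0.000221) and 2.27 ± 0.53 in the group labelled Rasa1-KO (edgeR, adjusted p = 0.00539), and 0.60 ± 0.52 in the group labelled double-KO, which did not pass (edgeR, adjusted p = 0.559).

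Crim1 and Fjx1 fell in Nf2-KO. Crim1 encodes a transmembrane protein that binds bone morphogenetic proteins and limits their delivery to the cell surface. It was at 23.7, 22.6 and 22.04 FPKM in control, 15.7, 16.3 and 16.1 FPKM in Nf2-KO, 16.5, 15.0 and 16.2 FPKM in the libraries labelled Rasa1-KO and 26.2, 28.4 and 30.5 FPKM in those labelled double-KO. The 4 groups formed 3 levels: Nf2-KO and labelled Rasa1-KO overlapped at the bottom, control was in the middle and labelled double-KO on top. Crim1 decreased by 0.45 (log2) in Nf2-KO (SE 0.08, edgeR, adjusted p = 0.000802), fell by 0.39 in the group labelled Rasa1-KO (SE 0.08, edgeR, adjusted p = 0.0024) and rose by 0.43 ± 0.08 in that labelled double-KO (edgeR, adjusted p = 0.00829). The last call was lost without library 3 labelled double-KO, at 0.43 (edgeR, adjusted p = 0.0527). The Crim1 locus overlaps the protein-coding gene Fez2 in the annotation.

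Fjx1 encodes the mammalian relative of four-jointed, a Golgi kinase that in flies acts on the cadherins Fat and Dachsous upstream of Hippo. It was at 17.0, 15.3 and 29.0 FPKM in control libraries 1, 2 and the one without a number and at 3.60, 3.78 and 3.53 FPKM in Nf2-KO. The libraries labelled Rasa1-KO had 5.44, 4.94 and 5.26 FPKM and those labelled double-KO 14.1, 8.25 and 7.47 FPKM. All libraries outside control lay below the lowest control library, and the 4 ranges did not overlap. Fjx1 decreased by 2.45 (log2) in Nf2-KO (SE 0.30, edgeR, adjusted p = 5.08e-05) and fell by 1.86 in the group labelled Rasa1-KO (SE 0.29, edgeR, adjusted p = 0.000403). In the group labelled double-KO its log2 difference was -0.94 ± 0.28 and did not pass (edgeR, adjusted p = 0.0742). In fits chosen after the data were seen, it passed without the 2 libraries that lay apart, at -0.90 (edgeR, adjusted p = 0.000104). It also passed with the table-name numbers as pairs, at -0.93 (edgeR, adjusted p = 0.000387).

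Membrane proteins are encoded by F3, Axl and Myof. F3 encodes tissue factor, the receptor that starts blood coagulation by binding factor VII. It was at 26.8, 29.7 and 26.7 FPKM in control, 93.7, 93.7 and 90.0 FPKM in Nf2-KO, 83.5, 78.9 and 84.6 FPKM in the libraries labelled Rasa1-KO and 54.9, 79.0 and 87.6 FPKM in those labelled double-KO. Every knockout library lay above every control library. F3 rose in all 3 groups, by 1.80 ± 0.14 in Nf2-KO (edgeR, adjusted p = 1.42e-06), 1.69 ± 0.14 in the group labelled Rasa1-KO (edgeR, adjusted p = 3.42e-06) and 1.52 ± 0.13 in that labelled double-KO (edgeR, adjusted p = 0.000143) on the log2 scale. Of the 10 genes, F3 was the only one higher in all 3 groups in this fit.

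Axl encodes a receptor tyrosine kinase for the ligand GAS6. It was at 34.6, 31.8 and 20.2 FPKM in control libraries 1, 2 and the one without a number and at 63.3, 63.2 and 57.2 FPKM in Nf2-KO. The libraries labelled Rasa1-KO had 39.9, 36.2 and 38.0 FPKM and those labelled double-KO 39.1, 32.9 and 35.6 FPKM. Nf2-KO stood clear of the other groups, the group labelled Rasa1-KO began just above control, and that labelled double-KO overlapped control. The log2 difference was 1.08 ± 0.15 in Nf2-KO (edgeR, adjusted p = 0.000178) and 0.54 ± 0.15 in the group labelled Rasa1-KO (edgeR, adjusted p = 0.015), and both passed. The second did not pass when the test used these 2 groups alone, at 0.55 (edgeR, adjusted p = 0.0631), and in the group labelled double-KO the value was 0.42 ± 0.15 (edgeR, adjusted p = 0.139).

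Myof encodes myoferlin, a membrane-repair protein of the ferlin family. It was at 116, 119.6 and 79.2 FPKM in control, 107, 107 and 95.0 FPKM in Nf2-KO, 119, 105 and 104 FPKM in the libraries labelled Rasa1-KO and 102, 113 and 121 FPKM in those labelled double-KO. All 4 ranges overlapped. The log2 difference was 0.04 ± 0.13 in Nf2-KO (edgeR, adjusted p = 0.814), 0.19 ± 0.13 in the group labelled Rasa1-KO (edgeR, adjusted p = 0.273) and 0.21 ± 0.13 in that labelled double-KO (edgeR, adjusted p = 0.391).

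Inside the cell, Ankrd1 encodes an ankyrin-repeat protein of the nucleus and the sarcomere and is a common readout of YAP. It was at 57.8, 52.2 and 49.9 FPKM in control, 155, 171 and 163 FPKM in Nf2-KO, 194, 199 and 202 FPKM in the libraries labelled Rasa1-KO and 38.1, 66.9 and 71.0 FPKM in those labelled double-KO. It was highest in the group labelled Rasa1-KO, whose lowest library exceeded the highest Nf2-KO library, and the group labelled double-KO spanned control. The log2 difference was 1.67 ± 0.18 in Nf2-KO (edgeR, adjusted p = 2.21e-05), 2.02 ± 0.18 in the group labelled Rasa1-KO (edgeR, adjusted p = 9.28e-06) and 0.24 ± 0.18 in that labelled double-KO (edgeR, adjusted p = 0.47). In the fit without the 2 libraries that lay apart, chosen after the data were seen, the last value was 0.46. It passed there (edgeR, adjusted p = 0.00257).

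Dock5 encodes an exchange factor that activates the small GTPase Rac. It was at 10.3, 11.5 and 6.04 FPKM in control libraries 1, 2 and the one without a number, 7.34, 6.13 and 5.35 FPKM in Nf2-KO, 7.30, 5.90 and 6.39 FPKM in the libraries labelled Rasa1-KO and 15.6, 13.1 and 14.0 FPKM in those labelled double-KO. The control library without a number lay among the Nf2-KO libraries, and the group labelled double-KO lay above all others. The log2 difference in Nf2-KO was -0.48 ± 0.19 and did not pass (edgeR, adjusted p = 0.0564), and without the control library without a number it was -0.69 and passed (edgeR, adjusted p = 0.000604). In the group labelled Rasa1-KO it was -0.37 ± 0.19 (edgeR, adjusted p = 0.132), and without that library -0.57 (edgeR, adjusted p = 0.00214). Dock5 rose by 0.75 ± 0.19 in the group labelled double-KO (edgeR, adjusted p = 0.0374), a call close to the threshold that was lost when any of 9 single libraries was left out, with log2 values between 0.66 and 0.85.

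**Figure D3:**
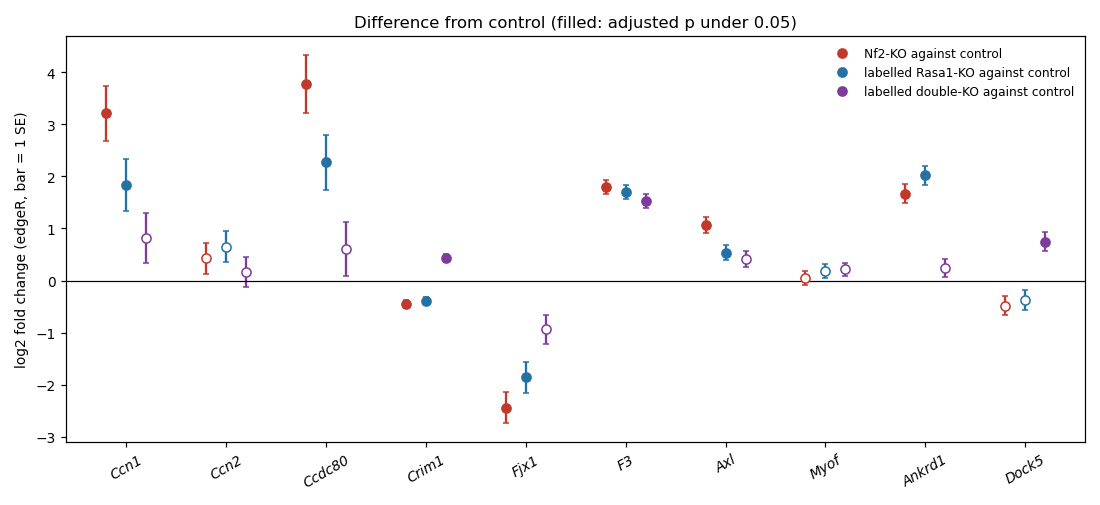
Log2 fold change from control (edgeR, bar = 1 SE, n = 3 libraries a group) of the 10 genes in Nf2-KO and in the groups labelled Rasa1-KO and double-KO; filled points passed at an adjusted p under 0.05. Crim1 is below 0 in 2 groups and above 0 in the group labelled double-KO, and F3 is filled in all 3.

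Counted over the 10 genes, 5 rose and 2 fell in the group labelled Rasa1-KO against control (background 19.7% higher and 22.2% lower), and 3 rose in the group labelled double-KO (background 4% higher and 2.46% lower). The genes called in the group labelled Rasa1-KO were those called in Nf2-KO, but the 2 comparisons share the control libraries, so this is a listing and not a test. Crim1, F3 and Dock5 were the 3 that rose in the group labelled double-KO. None fell in it by edgeR, while 1 had an unadjusted p under 0.05 in that direction and DESeq2 called 1, Fjx1 (background by DESeq2 6.96% higher and 4.55% lower). In a fit of these 2 groups alone, none of the 3 passed (background in that fit 0.0510% higher and 0.0510% lower). The edgeR adjusted p-values there were 0.052 for F3, 0.259 for Crim1 and 0.271 for Dock5. Without the 2 libraries that lay apart, 5 rose and 1 fell in the group labelled double-KO (background in that fit 17.1% higher and 12.8% lower).

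The direct comparisons between knockout groups do not use the control means, although the fit over all groups takes its spread from the control libraries too. Between the group labelled Rasa1-KO and Nf2-KO none of the 10 genes was called in either direction in the fit over all groups (background 1.92% higher and 1.74% lower). At an unadjusted p under 0.05, 3 were lower and 0 higher, and DESeq2 called 3 lower and 0 higher (background by DESeq2 4.55% lower and 3.76% higher). Ccn1 had a log2 difference of -1.37 ± 0.49 (edgeR, adjusted p = 0.178), Ccdc80 of -1.51 ± 0.50 (edgeR, adjusted p = 0.14) and Axl of -0.54 ± 0.15 (edgeR, adjusted p = 0.0816). The ranges of these 3 genes did not overlap between the 2 groups, and the spread in this fit was shared with control and the labelled double-KO group, which held the libraries that lay apart. In a fit of these 2 groups alone, 3 were lower (Ccn1, Ccdc80 and Axl) and 3 higher (Ccn2, Fjx1 and Ankrd1) in the group labelled Rasa1-KO, where the background was 13.8% lower and 12% higher. The same 3 and 3 were counted when the 2 libraries that lay apart were left out (background 10.5% lower and 8.76% higher).

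Between the group labelled double-KO and that labelled Rasa1-KO, Crim1, Fjx1 and Dock5 were higher and Ccdc80 and Ankrd1 lower (background 16.3% higher and 14.0% lower). The log2 difference was 0.82 ± 0.08 for Crim1 (edgeR, adjusted p = 2.97e-05), 1.12 ± 0.19 for Dock5 (edgeR, adjusted p = 0.0012) and 0.92 ± 0.28 for Fjx1 (edgeR, adjusted p = 0.0287). It was -1.78 ± 0.18 for Ankrd1 (edgeR, adjusted p = 4.24e-05) and -1.67 ± 0.51 for Ccdc80 (edgeR, adjusted p = 0.0285). F3, at -0.17 ± 0.13, and Axl, at -0.12 ± 0.15, overlapped between these groups. The calls of Fjx1 and Ccdc80 were lost when library 1 labelled double-KO was left out, at 0.57 (edgeR, adjusted p = 0.126) and -1.36 (edgeR, adjusted p = 0.0911), and also without any 1 of the 3 libraries labelled Rasa1-KO. Without the 2 libraries that lay apart, 5 genes were lower, with Ccn1, Ccn2 and Axl in addition (background in that fit 25.7% higher and 24.6% lower).

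The design of 2 knockouts and their combination allows a test of whether the labelled double-KO group departed from the sum of the labelled single effects. With the labels as given, 3 genes departed upward (Crim1, Fjx1 and Dock5) and 5 downward (Ccn1, Ccdc80, F3, Axl and Ankrd1), against a background of 27.4% upward and 24.9% downward. Ccn2 and Myof did not pass. The departure of Ccn2 passed without the 2 libraries that lay apart, at -0.36 (edgeR, adjusted p = 0.0048, background 35.0% upward and 34.0% downward), and with the table-name numbers as pairs, at -0.37 (edgeR, adjusted p = 0.0488, background 29.1% upward and 28.8% downward). Nf2 itself departed by 4.41 ± 0.13 on the log2 scale, that is, the test carries the contradiction between the labels and the Nf2 level. With the 2 labels exchanged, 1 gene departed upward (Fjx1) and 2 downward (F3 and Axl), against a background of 2.69% upward and 3.72% downward.

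The spread within groups differed greatly between the 10 genes. In control the SD over 3 libraries of log2 CPM (counts scaled to library size) was 1.52 for Ccdc80, 1.01 for Ccn1, 0.68 for Ccn2 and 0.57 for Fjx1, above the median of 0.39 over all genes tested, and 0.11 for Ankrd1, 0.06 for Crim1 and 0.05 for F3. In the control library without a number, Ccn1, Ccn2 and Ccdc80 were low and Fjx1 was high, and library 1 labelled double-KO had the same 4 directions. Other genes went different ways in these 2 libraries. F3 and Ankrd1 were near the group mean in the control library and low in the labelled double-KO library. Axl and Dock5 were below the group mean in the control library (-0.40 and -0.49) and above it in the labelled double-KO library (0.21 and 0.17). Myof was below it in both (-0.31 and -0.10). In Nf2-KO the largest SD was 0.22, for Dock5, in the group labelled Rasa1-KO it was 0.21, for Ccdc80, and in that labelled double-KO it was 1.16, for Ccn1.

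**Figure D4:**
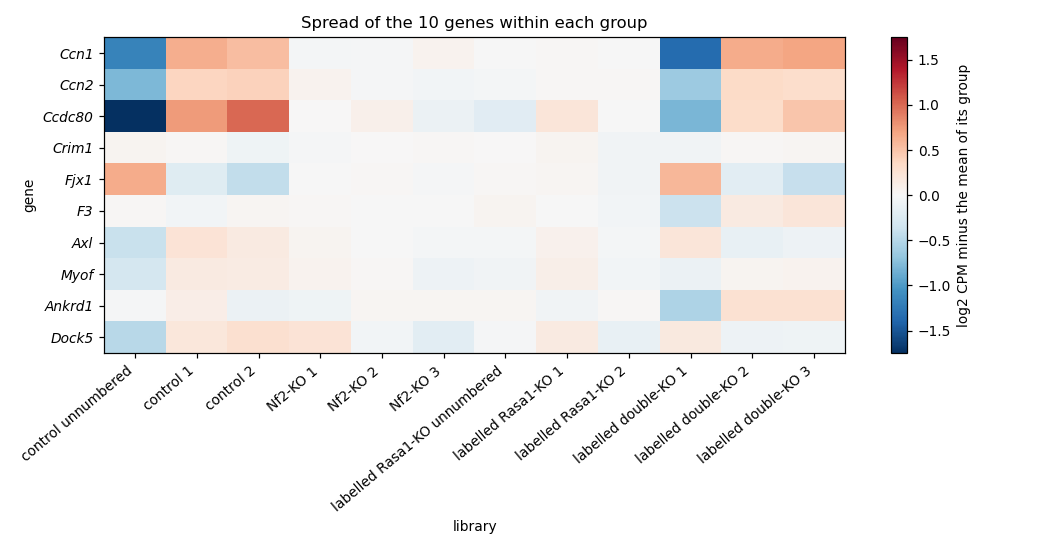
Deviation of each library's log2 CPM from its group mean for the 10 genes (colour scale, red above and blue below). The deviations concentrate in the control library without a number and in library 1 labelled double-KO, where Ccn1, Ccn2 and Ccdc80 are blue and Fjx1 is red, while the rows of Crim1 are pale throughout.

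As a description over the 12 libraries, after subtracting group means, the deviations of Ccn1 and Ccn2 correlated at r = 0.98 and those of Ccn1 and Fjx1 at r = -0.96. These values share the libraries and their depth, and the largest deviations of these genes were those of the 2 libraries that lay apart. Without subtracting group means, Ccn1 went with Ccdc80 (r = 0.98) and against Fjx1 (r = -0.97), and Crim1 went with Dock5 (r = 0.88) and against Ankrd1 (r = -0.80). Myof had its highest correlation with Ccn2 (r = 0.71).

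By levels per length, the order of the genes also differed between groups. In control the highest were Ccn2 (117 ± 50.4 FPKM, SD, n = 3) and Myof (105 ± 22.3), which did not differ beyond their spread, followed by Ankrd1 (53.3 ± 4.08). Axl (28.9 ± 7.62), F3 (27.7 ± 1.75), Crim1 (22.8 ± 0.84), Ccn1 (20.6 ± 11.4) and Fjx1 (20.4 ± 7.50) formed a middle tier in which, of the neighbours in this order, F3 and Crim1 alone had ranges that did not overlap, and Dock5 and Ccdc80 came last. In Nf2-KO, Ccn1 moved from the seventh place to the first (180.4 ± 4.88 FPKM), ahead of Ankrd1 (163 ± 8.04) and Ccn2 (149 ± 7.30), which overlapped each other and not Ccn1, and Fjx1 moved from the eighth place to the last (3.64 ± 0.13). In the group labelled Rasa1-KO, Ankrd1 was first (198 ± 4.29 FPKM), and in that labelled double-KO, Ccn2 was first (120.6 ± 42.0) as in control.

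The other 12 genes of the signature also went in both directions. In Nf2-KO, 6 rose, 2 fell and 4 did not pass (background 20.6% higher and 22.2% lower), and their median log2 difference was 0.46, beside -0.07 over all genes tested. Those that rose were Amotl2, an angiomotin family member that binds YAP (2.91 ± 0.20), Igfbp3, a binding protein of insulin-like growth factors (2.89 ± 0.44), Rbms3, an RNA-binding protein (1.14 ± 0.36), the Hippo kinase Lats2 (0.98 ± 0.09), the stress-response gene Gadd45a (0.58 ± 0.12) and Nt5e, the ectonucleotidase CD73 (0.55 ± 0.17), with edgeR adjusted p-values from 7.08e-07 to 0.0242. The kinase gene Nuak2 fell by 1.20 (SE 0.18, edgeR, adjusted p = 0.000243) and Arhgef17 fell by 0.57 (SE 0.11, edgeR, adjusted p = 0.00145). In the group labelled Rasa1-KO, 5 rose and 2 fell (background 19.7% higher and 22.2% lower), and in that labelled double-KO, 2 rose and 1 fell (background 4% higher and 2.46% lower).

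**Figure D5:**
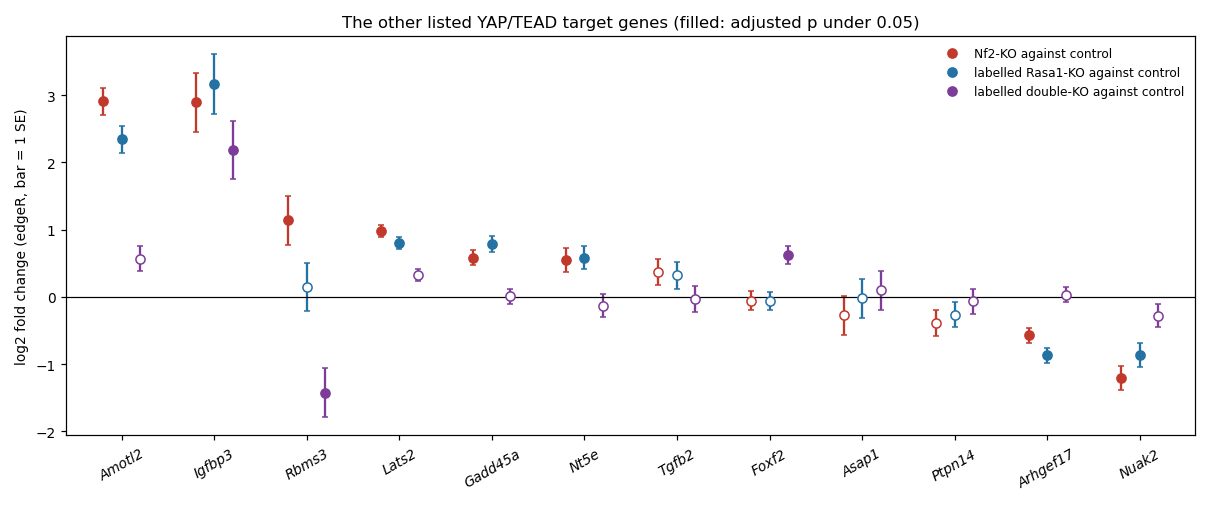
Log2 fold change from control (edgeR, bar = 1 SE, n = 3 libraries a group) of the other 12 genes of the signature, ordered by their value in Nf2-KO; filled points passed at an adjusted p under 0.05. Amotl2 and Igfbp3 are highest and Nuak2 is lowest in Nf2-KO, and Rbms3 is above 0 in Nf2-KO and below 0 in the group labelled double-KO.

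Among 22 genes that act on or with YAP and TAZ, of which Lats2, Amotl2 and Ptpn14 also belong to the signature, 7 rose and 3 fell in Nf2-KO, the targeted gene Nf2 among the latter. Their median log2 difference was 0.09, and with 20.6% of all genes higher and 22.2% lower, these counts are not set apart from the background. Yap1 stood at 21.95 to 23.6 FPKM in Nf2-KO and 22.03 to 23.4 FPKM in control (log2 difference 0.08 ± 0.08, edgeR, adjusted p = 0.467). Wwtr1, which encodes TAZ, rose by 0.46 ± 0.12 (edgeR, adjusted p = 0.0076). None of the 4 Tead genes passed in Nf2-KO by edgeR. Tead1 had a log2 difference of -1.08 ± 0.46, Tead2 of 0.95 ± 0.45, Tead3 of -0.28 ± 0.22 and Tead4 of 0.56 ± 0.30.

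Partners and paralogs of the 10 genes were also examined, 27 of them, of which 14 rose and 6 fell in Nf2-KO, beside a background of 20.6% higher and 22.2% lower. The share that fell is the background share, and the median log2 difference of the 27 was 0.61. Beside Axl, the related receptors Mertk (3.66 ± 0.33) and Tyro3 (2.08 ± 0.19) rose on the log2 scale. Mertk was near the floor, at 0.018 to 0.043 FPKM in control and 0.34 to 0.45 FPKM in Nf2-KO. Tyro3 was at 0.40 to 0.65 FPKM in control and 2.24 to 2.40 FPKM in Nf2-KO. Beside F3, its inhibitor Tfpi rose by 1.85 ± 0.17. Beside Ccn1, the family member Ccn5 rose by 2.90 ± 0.65. Of the cadherins on which four-jointed acts in flies, Dchs2 rose by 3.57 ± 0.57 and Fat4 by 1.94 ± 0.39, while Fjx1 fell. Dchs2 was also near the floor in control, at 0.013 to 0.119 FPKM, and at 0.46 to 1.01 FPKM in Nf2-KO. Bmp4, a ligand of the family that Crim1 binds, rose by 1.36 ± 0.11, and the Rac exchange factor gene Dock4, a relative of Dock5, fell by 1.52 (SE 0.36). The edgeR adjusted p-values of these 8, those with the largest differences among 12 that passed at a log2 difference of 1 or more in size, ran from 2.29e-06 to 0.0049.

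Fibroblast marker genes moved with the groups as well. Of 5 in the tables, 4 rose and 1 fell in Nf2-KO (background 20.6% higher and 22.2% lower), with a median log2 difference of 4.45, and the same split was counted in the group labelled Rasa1-KO. The 1 that fell in Nf2-KO was Dcn, by 0.72 (SE 0.25, edgeR, adjusted p = 0.0362). It was at 15.4 to 41.2 FPKM in control and 16.5 to 19.2 FPKM in Nf2-KO, ranges that overlapped. The 4 that rose were at 3.44 FPKM or less in control. Col1a2, a chain of type I collagen, was at 23.2 to 24.5 FPKM in Nf2-KO, 4.86 to 5.24 FPKM in the libraries labelled Rasa1-KO and 0.00306 to 0.0944 FPKM in control. The summed level of the 5 genes was 115 to 132 FPKM in Nf2-KO, 15.9 to 48.5 in control, 36.3 to 44.1 in the libraries labelled Rasa1-KO and 7.76 to 9.15 in those labelled double-KO, where Dcn made up most of the sum in control. Of 3 leukocyte markers in the tables, 2 rose in Nf2-KO and 1 in the group labelled Rasa1-KO, and their summed level was 4.31 to 6.83 FPKM in control, 11.1 to 11.9 in Nf2-KO, 14.3 to 16.5 in the libraries labelled Rasa1-KO and 5.19 to 12.4 in those labelled double-KO. Nearly all of it was Cd68, a lysosomal membrane protein gene that is abundant in macrophages, at 4.06 to 6.27 FPKM in control, 10.6 to 11.1 FPKM in Nf2-KO and 13.9 to 16.2 FPKM in the libraries labelled Rasa1-KO (log2 differences 1.02 ± 0.26 and 1.58 ± 0.27, edgeR, adjusted p = 0.00908 and 0.000718). Csf1r, the receptor of a macrophage growth factor, stayed below 0.77 FPKM and rose by 0.90 ± 0.32 in Nf2-KO (edgeR, adjusted p = 0.0373), whereas Ptprc, which encodes the common leukocyte antigen CD45, stayed below 0.1 FPKM in every library. Of the endothelial markers, Pecam1 stayed below 0.26 FPKM and Kdr below 0.16 FPKM in every library, and in Nf2-KO Kdr rose by 1.28 ± 0.41 (edgeR, adjusted p = 0.0266) and Pecam1 fell by 1.62 (SE 0.37, edgeR, adjusted p = 0.00417). In bulk RNA, more cells of a type and more RNA per cell cannot be told apart, and the part of the fibroblast and leukocyte genes in the results for Ccn1, Ccdc80 and the other 8 genes was not tested.

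For each of the 10 genes the 2 other genes with the most similar pattern were found, by Pearson correlation of log2 CPM over the 12 libraries among 12266 genes of sufficient level. They were Stard13 and Gnb4 for Ccn1 (r = 0.98 for both), Fnip2 and Rasa4 for Ccn2 (both 0.98), Col5a1 and Stard13 for Ccdc80 (both 0.99), Esam and Abhd5 for Crim1 (0.99 and 0.98), and Ugt2b36 and Gm13420 for Fjx1 (both 0.99). They were Mettl7b and Tiparp for F3 (both 0.98), Acaca and Ccdc136 for Axl (both 0.98), Stk24 and 5033421B08Rik for Myof (0.96 and 0.94), Porcn and Pim1 for Ankrd1 (both 0.99), and 2610507B11Rik and Dnajc16 for Dock5 (0.98 and 0.97). No gene was nearest to both Ccn1 and Ccn2, whereas Stard13 was near to both Ccn1 and Ccdc80. All points share the 12 libraries and the 4 groups.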

How the data were processed

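Per the labels and the study's methods, total RNA depleted of ribosomal RNA was made into TruSeq Stranded Total RNA libraries and sequenced in pairs. Reads were trimmed (Trimmomatic 0.38), aligned to mm10 (HISAT 2.1.0, SAMtools 1.9) and assembled and counted per RefSeq gene (StringTie 2.1.3b); the strand setting is not given in the sources used here. Each of the 12 deposited tables holds read counts per gene, which the authors did not normalize, and FPKM values that the authors computed from them by gene length and library depth. Their TPM and normalized columns were not used.

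Counts were tested with edgeR 4.0.16 (R 4.3.3): low counts were removed by group, libraries scaled by TMM, and a quasi-likelihood fit over all 4 groups tested, with Benjamini-Hochberg adjustment over 18053 genes and a threshold of 0.05. The SE is the log2 difference divided by the root of the F statistic. The scripts were tested on simulated data. Alternatives were DESeq2 1.42.0, limma 3.58.1 on log2(FPKM + 1) and log2(FPKM + 0.1), other scaling and filters, the study's threshold (3-fold, unadjusted p under 0.05), only the groups compared, replicate blocks, single libraries left out and labels exchanged. A pair of alternatives was chosen after seeing the data: leaving out the 2 libraries that lay apart, and pairing by the numbers in the table names. Between control and the group labelled double-KO, these numbers gave correlations of deviations of 0.63, 0.31 and 0.44. The 0.63 is that of the 2 libraries that lay apart. The numbers of the labels gave -0.38 and 0.40 between the same groups.

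The 10 genes and all gene lists were chosen with earlier results of these data known. Named were the 10 genes, Nf2 and Rasa1, signature genes that passed in Nf2-KO, Yap1, Wwtr1 and the Tead genes, the 8 partners with the largest difference, markers of other cell types, and the 2 most similar genes of each; the motifs and the ratio of Ccn1 to Ccn2 were added after the data were seen. Promoters and positions come from RefSeq GRCm38.p6 and overlaps from the GENCODE annotation of GRCm38, the assembly of mm10. Figures were drawn with matplotlib 3.10.9. Depth was 43818139 to 96674463 counts a library.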

Additional observations from a re-analysis of the deposited data

Results flagged for a closer look

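The test of whether the group labelled double-KO departed from the sum of the labelled Nf2-KO and Rasa1-KO effects passed for 8 of the 10 genes with the labels as given. Of all genes tested, 27.4% departed upward and 24.9% downward in the same test. The departure on the log2 scale was -5.46 for Ccdc80, -4.24 for Ccn1, -3.45 for Ankrd1, -1.97 for F3 and -1.20 for Axl, and 3.37 for Fjx1, 1.60 for Dock5 and 1.28 for Crim1. The labels of the 2 groups go against the Nf2 level. With the labels exchanged, 3 of the 8 passed: Fjx1 at 1.52, F3 at -1.63 and Axl at -0.95. The background in that fit was 2.69% of all genes tested upward and 3.72% downward. Ccn1, at -2.19, and Ccdc80, at -2.11, kept their direction without passing (edgeR, adjusted p = 0.0891 and 0.117). Ankrd1, at 0.10, Dock5, at -0.63, and Crim1, at -0.37, changed sign and did not pass (edgeR, adjusted p = 0.881, 0.207 and 0.0785).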

How the results depend on the processing

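All 10 genes had 27 or more counts in every library, and each group had 3 libraries. How far depth limited the precision for single genes was not tested. With 12 counts of genes and 60 log2 differences over the 6 comparisons, 1154 of the single differences kept their direction and side of the threshold under the alternatives, 50 passed only under an alternative, 31 lost their call and 25 changed sign. Other scaling and no filter on low counts changed no count of genes by over 1.5 times. For the study's threshold, limma, both replicate blocks and single libraries left out, the share of all genes called was not computed for the counts below. Those counts show how calls moved between fits and cannot be set against a background. The cause of these changes was not tested.

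The study's own threshold left 1 gene lower in Nf2-KO and 1 lower in the group labelled Rasa1-KO, and 0 higher in the group labelled double-KO against control and against that labelled Rasa1-KO. DESeq2 called 1 gene lower in the group labelled double-KO and 3 lower in the group labelled Rasa1-KO against Nf2-KO. With only the groups compared, 0 were higher in the group labelled double-KO against control, and between the group labelled Rasa1-KO and Nf2-KO 3 were higher and 3 lower. On log2(FPKM + 1), limma called 1 lower in the group labelled double-KO and 2 lower in the group labelled Rasa1-KO against Nf2-KO, and on log2(FPKM + 0.1) 1 and 1. With the labels exchanged, 1 gene departed from additivity upward and 2 downward. Leaving out both libraries that lay apart, a choice made after seeing the data, gave 5 higher and 1 lower in the group labelled double-KO against control, 3 higher and 3 lower in the group labelled Rasa1-KO against Nf2-KO, and 5 lower in the group labelled double-KO against that labelled Rasa1-KO.

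With the label numbers as a replicate block, 1 gene was higher in the group labelled double-KO. Correlations of deviations by these numbers ran from -0.38 to 0.40. With the numbers of the table names as a replicate block, chosen after seeing the data, 1 was lower in the group labelled double-KO, and in the group labelled Rasa1-KO against Nf2-KO 1 was higher and 2 lower. Neither block moved another count by over 1.5 times.

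Leaving out 1 library at a time, 1 to 3 genes were higher and 0 to 1 lower in the group labelled double-KO against control, 0 to 3 were lower in the group labelled Rasa1-KO against Nf2-KO, and 1 to 3 were lower in the group labelled double-KO against that labelled Rasa1-KO. The 1 higher came without library 3 labelled double-KO, the 1 lower without control library 2 or library 1 labelled double-KO, and the 3 lower against Nf2-KO without the control library without a number. The 1 lower of the last comparison came without any 1 of the libraries labelled Rasa1-KO or without library 1 or 2 labelled double-KO.

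Changes of sign were mostly of values near 0. Myof in Nf2-KO was 0.00 with limma at either pseudocount, -0.03 under the label block, -0.01 under the table-name block and -0.09 without the control library without a number, alone or with library 1 labelled double-KO. Its departure from additivity was 0.04 with limma at either pseudocount, 0.11 under the table-name block, 0.17 without both libraries and -0.08 to 0.12 without single libraries. Its difference between the groups labelled double-KO and Rasa1-KO was -0.06 under the label block and -0.01 to 0.08 without single libraries. Crim1 in the group labelled Rasa1-KO against Nf2-KO was -0.01 and -0.02 with limma. Ccn2 in the group labelled double-KO was -0.05 under the label block and -0.13 to 0.42 without single libraries, the lowest without the control library without a number. With the labels exchanged, the departure from additivity was 0.05 for Ccn2, -0.37 for Crim1, 0.10 for Ankrd1 and -0.63 for Dock5. With the labels as given, the departures of Crim1, Ankrd1 and Dock5 had passed in the other direction and were not near 0.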
